A study of Rattus norvegicus with 12 samples.

Results

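The comparison of 49 with 35 days of age after a neonatal injection of 100 µg diethylstilbestrol (DES) rests on 4 of the 12 arrays of the study, chosen by their titles: 2 arrays of DES 100 µg at 49 days and 2 of DES 100 µg at 35 days. Each array holds RNA from 1 animal. Terminal end buds were cut out of frozen sections of the abdominal mammary glands of inbred female Sprague-Dawley rats by laser microdissection, and all animals had received a single subcutaneous injection in sesame oil within a day of birth. The other arrays are DES 1 µg at 49 and 35 days and sesame oil alone at 49 and 35 days, again 2 animals each, and oil is present in every group. Each group is therefore 2 animals, and the tissue is a dissected structure that can carry neighbouring stroma as well as epithelium. The arrays carry 20500 measuring probes. At 49 days, at 35 days or at both, 12903 of these were detected in the 2 DES 100 µg animals by the deposited flags. With a single probe kept for each gene, the brightest, 11935 features were tested, and 5495 have a gene symbol.

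Terminal end buds are the club-shaped growing tips of the ducts in the immature mammary gland. They have an outer layer of cap cells and a multilayered body of luminal cells, and they drive duct elongation during puberty before giving way to alveolar buds and quiescent duct ends. DES is a potent synthetic estrogen, and exposure around birth is known to alter later development of estrogen target tissues. Estrogen acts on the duct largely through amphiregulin released from luminal cells, whereas milk protein genes are switched on in luminal cells mainly by prolactin, whose receptor activates the transcription factor Stat5.

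The 4 casein and whey promoters are shown because these genes rose with age after DES 100 µg, and because Stat5 binds a palindrome of the form TTCNNNGAA. Sequences are the 250 bases before the transcription start in RefSeq, build GRCr8, written 5′ to 3′ along the gene, with every match to the palindrome in capitals. Csn1s2a lies on chr14:20574472-20574721 (minus strand), Csn2 on chr14:20601574-20601823 (plus strand), Csn3 on chr14:20439831-20440080 (minus strand) and Wap on chr14:85719160-85719409 (minus strand).
Csn1s2a: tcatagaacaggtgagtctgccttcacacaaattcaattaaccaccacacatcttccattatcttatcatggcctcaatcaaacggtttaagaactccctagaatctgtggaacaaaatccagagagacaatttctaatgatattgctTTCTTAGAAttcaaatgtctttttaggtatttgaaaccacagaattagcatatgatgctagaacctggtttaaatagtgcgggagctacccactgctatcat
Csn2: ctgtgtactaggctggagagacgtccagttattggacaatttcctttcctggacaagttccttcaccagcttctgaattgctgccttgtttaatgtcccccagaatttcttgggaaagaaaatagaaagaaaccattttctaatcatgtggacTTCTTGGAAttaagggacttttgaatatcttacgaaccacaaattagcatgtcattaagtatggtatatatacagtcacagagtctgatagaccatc
Csn3: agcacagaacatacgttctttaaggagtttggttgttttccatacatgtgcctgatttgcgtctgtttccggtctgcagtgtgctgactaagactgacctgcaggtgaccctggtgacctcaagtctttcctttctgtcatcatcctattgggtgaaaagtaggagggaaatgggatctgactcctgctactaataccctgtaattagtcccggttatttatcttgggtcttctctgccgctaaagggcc
Wap: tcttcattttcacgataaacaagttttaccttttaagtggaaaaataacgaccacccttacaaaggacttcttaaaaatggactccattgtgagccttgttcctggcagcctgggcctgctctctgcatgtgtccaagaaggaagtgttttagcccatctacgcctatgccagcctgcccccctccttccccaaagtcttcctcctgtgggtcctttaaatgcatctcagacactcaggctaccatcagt
The palindrome begins 102 bases before the start of Csn1s2a and 97 bases before that of Csn2, and these letters are not in the windows of Csn3 and Wap. It is its own reverse complement, so both strands were searched at once. Of all 27457 promoter windows of this length, 7.52% hold it. Among the genes that rose at 49 days after DES 100 µg and have a promoter window, 11 of 181 (6.08%) hold it, against 5.86% of the 4487 tested genes with a window.

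On 11935 features, 699 (5.86%) differed between 49 and 35 days after DES 100 µg, 518 of them higher (4.34%) and 181 lower (1.52%) at 49 days. Calls are from limma, fitted to all 12 arrays with a mean for each group, at a Benjamini-Hochberg adjusted p under 0.05, and values are log2 of the signal over the array median. All 699 have both arrays of one age beyond both arrays of the other. With 2 arrays an age a call largely requires this, so such separation, here and below, is not further support. Of the calls, 168 of the rises and 80 of the falls were at least 2-fold. The median difference over all features was 0.05, and -0.01 when arrays were scaled by their 75th percentile, which gave 442 rises and 292 falls (60.2% higher, against 74.1%). With 2 animals an age, 1 array carries weight. The fit without the first 35-day array made 215 calls, of which 203 are among the 699, and that without the second made 182 (173 among them). The fit without the first 49-day array made 745 calls (491 among them) and that without the second 211 (201 among them). No scan day holds both ages of DES 100 µg, so no difference within a day exists, and with scan day as a block the fit has 1 residual degree of freedom and made 0 calls in limma, with 1337 features at an unadjusted p under 0.05.

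The array medians of the processed signal were 37.2 and 25.3 at 49 days and 38.55 and 33.6 at 35 days, and 59.7% and 61.7% of probes were detected on both arrays of those groups. The oil arrays at 49 days stand apart, with medians of 16.4 and 15.3, a lowest detected signal near 1.04 times the median against 0.214 to 0.364 on the other arrays, and 47.2% of probes detected, and every comparison with the change in oil carries this.

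Among genes with a symbol that were detected on all 4 arrays, the milk protein gene Csn1s2a had the largest rise. Csn1s2a, which encodes a calcium-sensitive casein, stood at 5.70 and 8.74 times the array median at 49 days, against 0.610 and 0.420 at 35 days. Both 49-day animals were far above both 35-day animals, a 13.9-fold difference (log2 3.80 ± 0.25, SE, adjusted p = 0.00033). Wap, whey acidic protein, was at 2.93 and 3.66 at 49 days, against 0.457 and 0.476 at 35 days (log2 2.81 ± 0.24, adjusted p = 0.00092). Csn3, the casein that coats and stabilises micelles, was at 360 and 581 at 49 days, against 113 and 117 at 35 days (log2 1.99 ± 0.24, adjusted p = 0.0032). The 49-day arrays differed from each other more for Csn3 than the 35-day arrays did, without coming near them. Csn2, beta-casein, was at 6.69 and 5.69 at 49 days, against 2.34 and 1.56 at 35 days (log2 1.69 ± 0.21, adjusted p = 0.0038). Each of these 4 calls held without any single array. Under the normexp background correction, which lifts dim signals, the log2 differences were smaller, 1.79 for Csn1s2a, 1.17 for Wap, 1.82 for Csn3 and 1.02 for Csn2.

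Genes for milk fat and secretion rose with them. Fabp3, a fatty acid binding protein that is abundant in secretory mammary cells, was at 20.6 and 22.2 at 49 days, against 5.89 and 4.88 at 35 days (log2 2.00 ± 0.15, adjusted p = 0.00051). Olah, the thioesterase that releases medium-chain fatty acids in the mammary gland, was at 1376 and 1727 at 49 days, against 783 and 726 at 35 days (log2 1.03 ± 0.15, adjusted p = 0.0086). Xdh, an oxidoreductase needed to wrap milk fat droplets, was at 20.7 and 20 at 49 days, against 11.96 and 12.02 at 35 days (log2 0.76 ± 0.11). Groups did not overlap for any of these. Plin2, the coat protein of lipid droplets, and Csn1s1, another casein, rose less (log2 0.62 ± 0.13 and 0.58 ± 0.12). In the milk and alveolar differentiation list, 9 of 20 tested genes rose (4.34% of all features did), 0 fell and 11 did not pass. The list median was 0.56, beside 0.05 over all features, and it was 0.69 with scan day as a block and 0.36 under normexp. Among those that did not pass, Lalba, the cofactor of lactose synthesis, was at 656 and 605 at 49 days, against 418 and 494 at 35 days (adjusted p = 0.11), and Stat5a gave a log2 difference of 0.43 (adjusted p = 0.068). Between 5 and 8 genes of the list rose without each array in turn. The 5 measured luminal markers (of 8) summed to 1347 and 1316 times the median at 49 days, against 1630 and 1470 at 35 days, and their part in these rises was not tested. Olah, Xdh, Plin2 and Csn1s1 lost their call without at least 1 array, with adjusted p values up to 0.066 for Olah and 0.051 for Xdh without the second 35-day array, 0.18 for Plin2 without the second 49-day array and 0.15 for Csn1s1 without the second 35-day array.

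**Figure D1:**
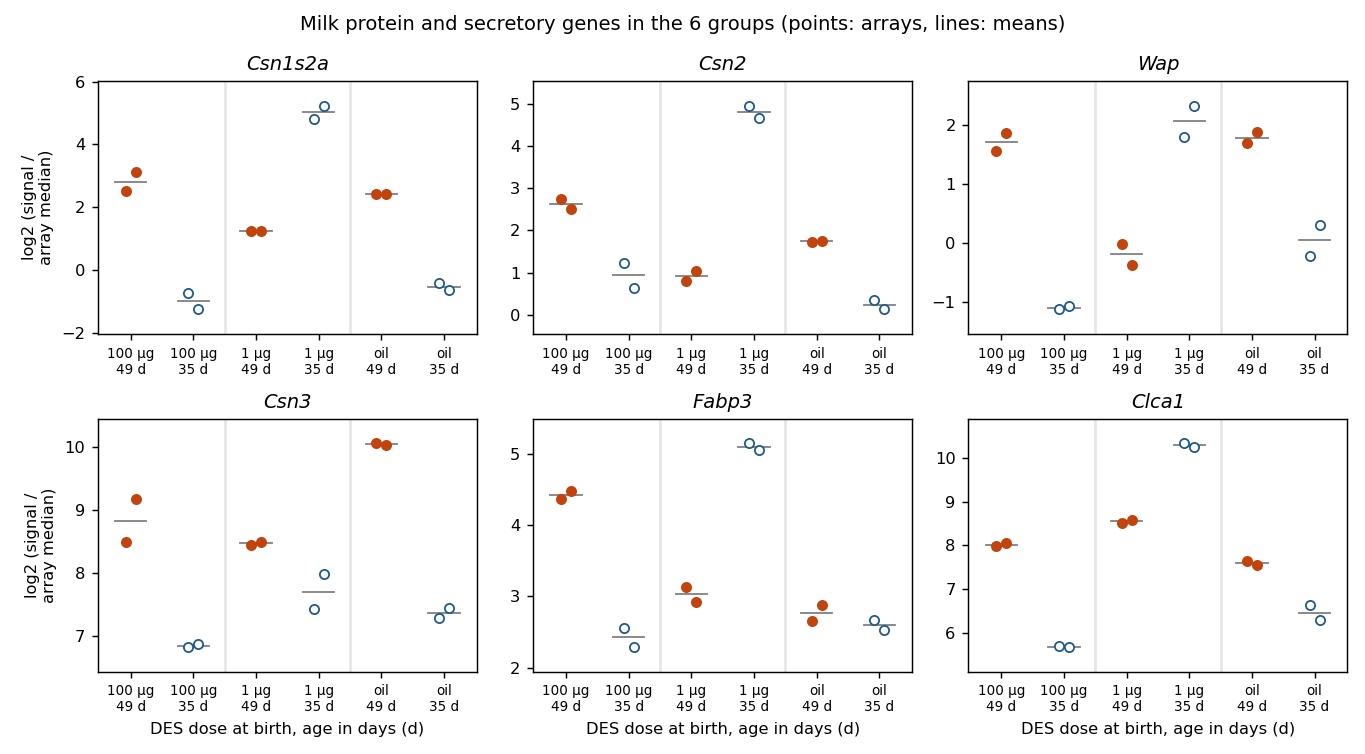
Signal over the array median on a log2 scale for 6 milk protein and secretory genes in the 6 groups, with filled points for 49 days, open points for 35 days and a line at the mean of the 2 arrays. After DES 100 µg the 49-day arrays lie above the 35-day arrays in all 6 panels, and after DES 1 µg they lie below them in the panels of Csn1s2a, Csn2, Wap, Fabp3 and Clca1.

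Among the other large rises, several encode secreted or surface proteins. Clca1, a secreted regulator of calcium-activated chloride conductance, was at 253 and 266 at 49 days, against 51.9 and 51.2 at 35 days (log2 2.33 ± 0.13, adjusted p = 0.00023). Igf2, an insulin-like growth factor, was at 23.0 and 27.5 at 49 days, against 4.98 and 5.27 at 35 days (log2 2.30 ± 0.11, adjusted p = 0.00023). Igfals, whose product holds insulin-like growth factors in large complexes in the circulation, was at 2.59 and 3.74 at 49 days, against 0.534 and 0.518 at 35 days (log2 2.56 ± 0.23, adjusted p = 0.001). The replicate animals of each age lay close together for Clca1 and Igf2, and less so for Igfals at 49 days. Each of these calls held without any single array. Cdh17, a cadherin of intestinal epithelium, rose by 2.26 ± 0.26 and Cbln2, a synaptic organiser, by 2.46 ± 0.16. Ntm and Ncam1, neural cell adhesion molecules, had log2 differences of 2.27 ± 0.34 and 2.09 ± 0.37, and their calls ended without the first 35-day array (adjusted p = 0.054 and 0.083) and without the second 49-day array (adjusted p = 0.067 and 0.12). Under normexp the dim genes among these moved less, by 1.03 for Igfals, 0.73 for Cdh17, 1.41 for Cbln2, 0.93 for Ntm and 0.78 for Ncam1.

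Metabolic and signalling genes were also among the largest rises. Aadat, an aminotransferase of the kynurenine and lysine pathways, was at 18.3 and 15.4 at 49 days, against 2.83 and 2.50 at 35 days (log2 2.66 ± 0.22, adjusted p = 0.00081). Ddit4l, an inhibitor of mTOR signalling, was at 1.94 and 2.11 at 49 days, against 0.511 and 0.583 at 35 days (log2 1.89 ± 0.14). The ages did not overlap for either gene and both calls held without any single array, and under normexp the log2 difference of Ddit4l was 0.73. Genes detected on both 49-day arrays and on neither 35-day array give only a lower bound: Gys2, the liver form of glycogen synthase, was at least 7.51-fold higher, P2ry14, a receptor for UDP-glucose, at least 4.17-fold, Kcnk2, a potassium leak channel, at least 3.88-fold, and Mfng, a glycosyltransferase that modifies Notch, at least 2.24-fold higher at 49 days (adjusted p = 0.0013, 0.00051, 0.0095 and 0.032). These bounds hold for the scaled processed signal. Under normexp, whose offset compresses dim signals, the log2 differences were 1.00, 0.51, 0.61 and 0.27, which is less than the bounds. A bound sets the mean of the bright arrays against the lowest detected signal on each dim array, or the probe's own signal where that is higher. The calls of Kcnk2 and Mfng ended without the second 49-day array (adjusted p = 0.072 and 0.20), and that of Mfng also without the second 35-day array (0.082) and the first 49-day array (0.061).

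**Figure D2:**
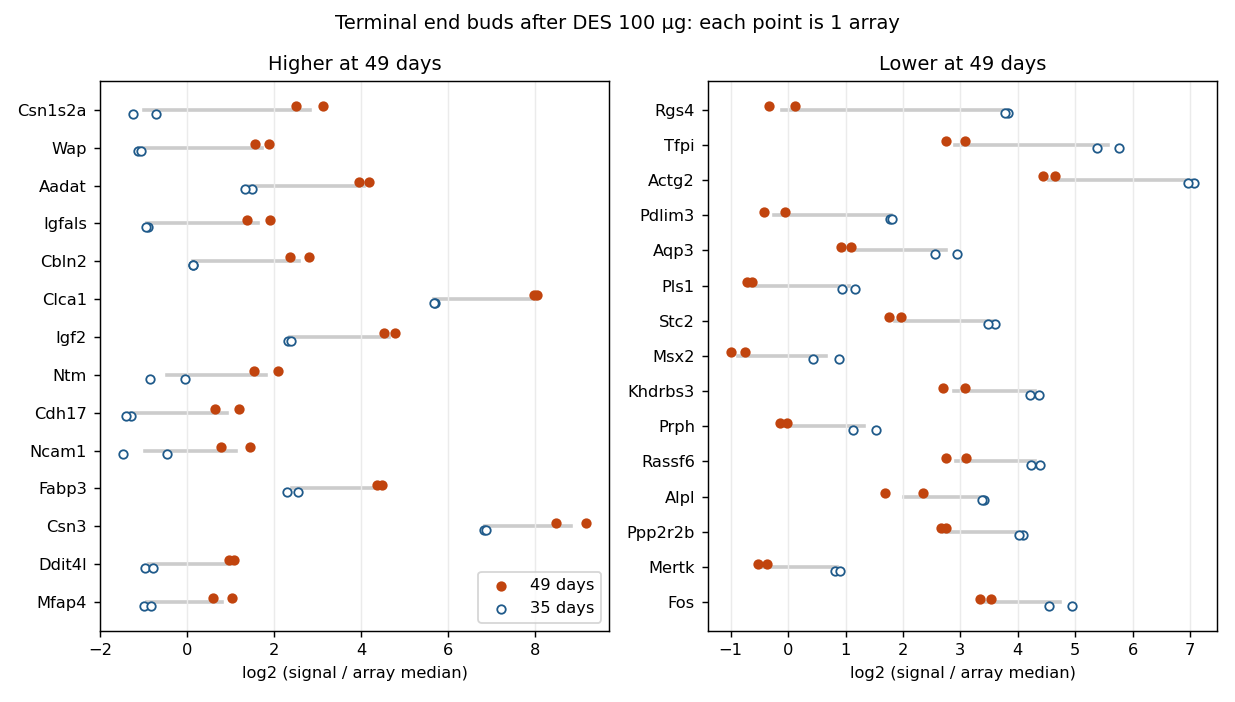
Each point is 1 array after DES 100 µg, filled at 49 days and open at 35 days, on a log2 scale of signal over the array median, for 14 of the 15 largest rises (left) and the 15 largest falls (right) among genes detected on all 4 arrays, joined by a bar between the means of the 2 ages. No gene's ages overlap, since that was a condition for showing it, and Csn1s2a and Rgs4 have the longest bars.

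Rgs4, which shuts off signalling from G protein coupled receptors by speeding GTP hydrolysis, gave the largest fall among genes detected on all 4 arrays. It was at 1.08 and 0.791 at 49 days, against 14.3 and 13.6 at 35 days. Both 49-day animals were about as low as the DES 1 µg animals of either age, which ranged from 0.837 to 1.34. The fall was 15.1-fold (log2 -3.92 ± 0.21, adjusted p = 0.00023), or -2.45 under normexp. Tfpi, the inhibitor of the tissue factor pathway of coagulation, was at 8.47 and 6.68 at 49 days, against 54.0 and 41.4 at 35 days (log2 -2.65 ± 0.24, adjusted p = 0.0012). Both calls held without any single array.

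Actg2, Pdlim3 and Pls1, whose products belong to or bind the actin cytoskeleton, were among the largest falls. Actg2, smooth muscle gamma-actin and a product of myoepithelium and vessel walls, was at 21.8 and 25.1 at 49 days, against 134 and 124 at 35 days (log2 -2.47 ± 0.14, adjusted p = 0.00023). Pdlim3, an alpha-actinin binding protein of muscle, was at 0.745 and 0.964 at 49 days, against 3.42 and 3.48 at 35 days (log2 -2.03 ± 0.13, adjusted p = 0.00033). Pls1, an actin-bundling plastin of microvilli, was at 0.642 and 0.605 at 49 days, against 2.24 and 1.92 at 35 days (log2 -1.74 ± 0.20, adjusted p = 0.0025). The ages were well separated for all 3, and each call held without any single array, with -1.01 for Pdlim3 and -0.70 for Pls1 under normexp. In the basal and myoepithelium list 1 of 15 tested genes, Actg2, passed the test (background for falls 1.52%), with a list median of -0.18 (-0.05 with scan day as a block). In the skeletal muscle list 0 of 7 fell and 1 rose, beside 4.34% of all features that rose. This was Actn3, a muscle alpha-actinin (log2 1.18, adjusted p = 0.0025). Myh11, smooth muscle myosin, was at 14.8 and 12.4 at 49 days, against 24.98 and 21.7 at 35 days (adjusted p = 0.053), and Krt14, the basal keratin, at 72.8 and 79.8, against 97.5 and 95.2 (adjusted p = 0.10).

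Stc2, a secreted glycoprotein that inhibits an IGF-binding-protein protease, was at 3.90 and 3.38 at 49 days, against 12.2 and 11.1 at 35 days (log2 -1.68 ± 0.25, adjusted p = 0.0084). Aqp3, a water and glycerol channel, was at 2.13 and 1.89 at 49 days, against 7.70 and 5.86 at 35 days (log2 -1.74 ± 0.25, adjusted p = 0.0078). Neither gene's ages overlap, but both calls ended without the first 35-day array (adjusted p = 0.061 and 0.060) and the second 49-day array (0.067 and 0.064), and that of Stc2 also without the second 35-day array (0.054). Ppp2r2b, a regulatory subunit of protein phosphatase 2A, Khdrbs3, an RNA-binding splicing regulator, and Prph, a neuronal intermediate filament, fell by 1.34 ± 0.14, 1.41 ± 0.18 and 1.40 ± 0.19 on the log2 scale. These 3 calls held without any single array, with -0.69 for Prph under normexp. Msx2, a homeobox gene of branching epithelia, Mertk, a receptor for clearance of dying cells, and Alpl, tissue-nonspecific alkaline phosphatase, had log2 differences of -1.53 ± 0.31, -1.31 ± 0.28 and -1.38 ± 0.29, and without single arrays their adjusted p rose to 0.15 for Msx2 (second 35-day array), 0.16 for Mertk (second 35-day array) and 0.19 for Alpl (second 49-day array).

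**Figure D3:**
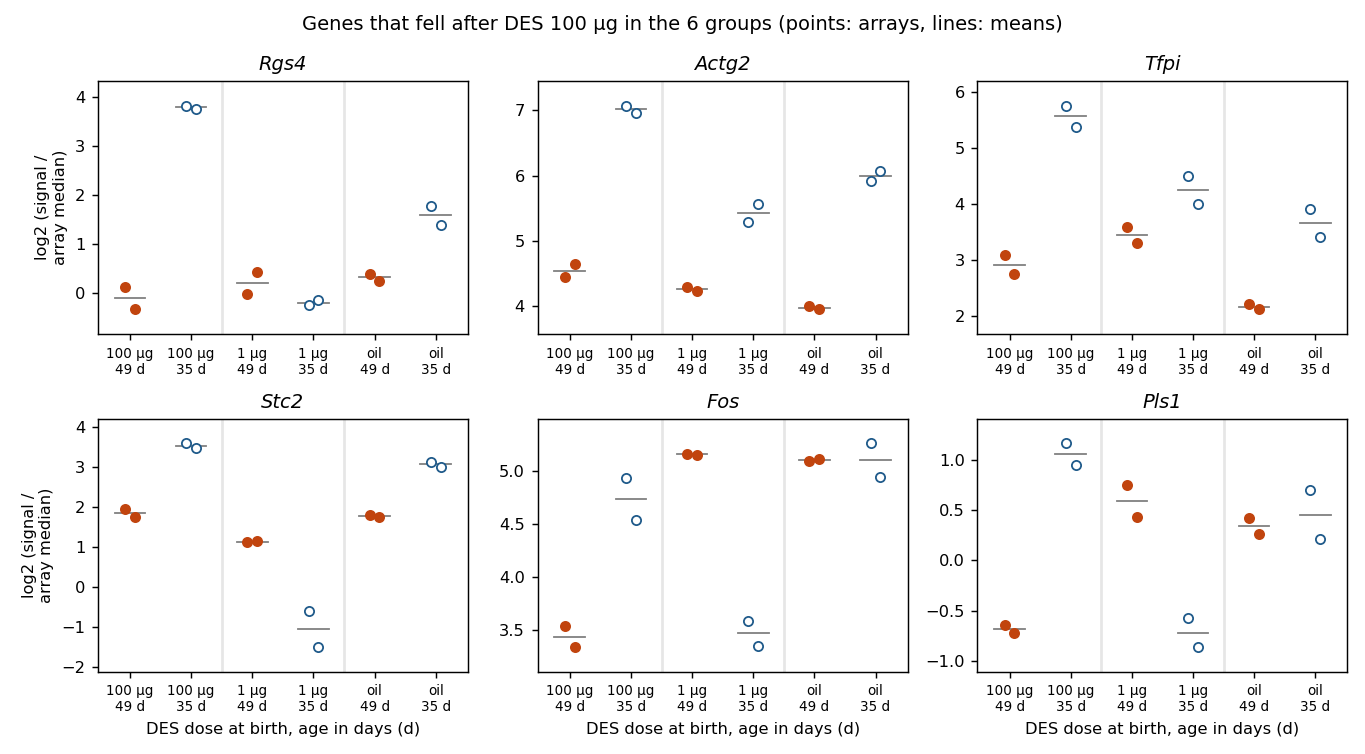
Signal over the array median on a log2 scale for 6 genes that fell after DES 100 µg, in the 6 groups, with filled points for 49 days, open points for 35 days and a line at the mean of the 2 arrays. Rgs4 is highest in the DES 100 µg animals at 35 days, with 14.3 and 13.6 times the array median, while Actg2 and Tfpi are lower at 49 than at 35 days in each treatment.

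Among immediate early and stress genes, 5 of 28 fell, beside 1.52% of all features. Fos, a subunit of the AP-1 transcription factor that is induced within minutes of many stimuli, was at 11.6 and 10.1 at 49 days, against 30.6 and 23.2 at 35 days (log2 -1.30 ± 0.17, adjusted p = 0.0050). Its call held without any single array. Socs3, a feedback inhibitor of cytokine signalling, was not well above background on either 49-day array and at least 1.80-fold lower than at 35 days (-0.17 on the log2 scale under normexp), and Klf4, a zinc finger factor, Ccn2 and Ccn1, matricellular proteins, fell by 0.86 ± 0.15, 0.76 ± 0.16 and 0.60 ± 0.14. Of 28 tested genes of this list 5 fell, 1 rose (Hsph1, a heat shock protein, log2 0.92 ± 0.16) and 22 did not pass, with a median of -0.23 (-0.14 with scan day as a block). Without single arrays 1 or 2 genes of the list still fell. Adjusted p values went up to 0.15 for Socs3 and 0.099 for Hsph1 without the second 35-day array, to 0.11 for Klf4 and 0.24 for Ccn1 without the first 35-day array, and to 0.17 for Ccn2 without the first 35-day or the second 49-day array. Cdkn1a, the cell cycle inhibitor induced by p53, was at 2.96 and 3.11 at 49 days, against 5.76 and 7.02 at 35 days (log2 -1.07 ± 0.14, adjusted p = 0.0044), and its call held without any single array. It was the single call among 23 tested genes of the p53, DNA repair and cell death list, beside 5.86% of all features.

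No gene of the cell cycle list passed. Of 32 tested in limma 0 rose and 0 fell, where 5.86% of all features were called. Of the 32, 10 had an unadjusted p under 0.05, beside 2534 of all 11935 features. The median was -0.25, and 21 differences were negative and 11 positive. Dlgap5, a mitotic spindle protein, was at 13.5 and 14.3 at 49 days, against 20.7 on both 35-day arrays (log2 -0.57 ± 0.14, adjusted p = 0.050). Cdk1, the kinase that drives entry into mitosis, was at 98.1 and 108 at 49 days, against 141 and 132 at 35 days (log2 -0.41 ± 0.12, adjusted p = 0.090), and the spindle protein Prc1 gave -0.66 ± 0.18 (adjusted p = 0.081). Likewise 0 genes passed in limma of 35 ribosomal protein genes (median 0.21, and -0.01 under quantile normalization), 28 genes of mitochondrial oxidative phosphorylation (median -0.06) and 16 of DNA methylation and chromatin (median -0.01), with 2, 1 and 0 at an unadjusted p under 0.05. In Dnmt3a, a DNA methyltransferase, the arrays of the same age differed widely, with 6.26 and 8.66 at 49 days against 3.09 and 4.61 at 35 days (adjusted p = 0.33).

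Of the estrogen-responsive list 3 of 12 tested genes were called, beside 5.86% of all features, and of the hormone and growth factor receptors 0 of 13. Areg, amphiregulin, was at 1594 and 1715 at 49 days, against 996 and 938 at 35 days (log2 0.78 ± 0.13, adjusted p = 0.014), with all 4 arrays bright. Ereg, epiregulin, another ligand of the same receptor family, was at 4.41 and 4.86 at 49 days, against 2.65 and 1.99 at 35 days (log2 1.01 ± 0.18, adjusted p = 0.015). Neither gene's ages overlap, but both calls ended without the second 35-day array (adjusted p = 0.099 and 0.095) and the second 49-day array (0.10 and 0.11), and that of Areg also without the first 35-day array (0.069). Pgr, the progesterone receptor, was at 9.33 and 10.9 at 49 days, against 8.30 and 7.86 at 35 days (log2 0.32 ± 0.11, adjusted p = 0.15), and Prlr, the prolactin receptor, at 2.74 and 3.04, against 2.37 and 2.54 (log2 0.23 ± 0.12, adjusted p = 0.31). Pcp4, a calmodulin-binding peptide, was at 28.0 and 36.2, against 23.5 and 22.1 (adjusted p = 0.10). The receptor count is from limma, and 3 of the 13 had an unadjusted p under 0.05, beside 2534 of all 11935 features. Of the estrogen-responsive genes 2 rose (Cxcl12 and Areg), 1 fell (Stc2) and 9 did not pass (median 0.28, and 0.11 under normexp). The call of Cxcl12, a chemokine, ended without each 35-day array (adjusted p = 0.11 and 0.15) and without the second 49-day array (0.17). Esr1, Krt18 and Mki67 were not analysed here. Cxcl10, an interferon-induced chemokine, was at 0.382 and 0.858 at 49 days, against 0.685 and 0.926 at 35 days, and these overlap (adjusted p = 0.53).

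Protein folding in the endoplasmic reticulum and lipid synthesis are both heavily used by secretory cells, and 4 of 20 and 5 of 27 tested genes of these lists rose, beside 4.34% of all features. Hyou1, a chaperone of the endoplasmic reticulum, was at 117.5 and 136.4 at 49 days, against 57.6 and 51.8 at 35 days (log2 1.21 ± 0.14, adjusted p = 0.0026). Hspa5, the major Hsp70 chaperone there, was at 460 and 518 at 49 days, against 285 and 226 at 35 days (log2 0.94 ± 0.15, adjusted p = 0.011). The ages did not overlap for either gene. All 20 tested genes of the folding list had a positive log2 difference, 4 rose and 0 fell, and the median was 0.31 (0.43 with scan day as a block, 0.14 under normexp), beside 0.05 over all features. That all were positive depended on the scaling: Hsp90b1 had 0.05 here, -0.01 under 75th percentile scaling and -0.13 under normexp. Fasn, fatty acid synthase, was at 178 and 168 at 49 days, against 107 and 106 at 35 days (log2 0.70 ± 0.13, adjusted p = 0.021). In the fatty acid and cholesterol list 0 genes fell, 22 did not pass, 7 differences were negative, and the median was 0.20 (0.06 under normexp). Without the first 35-day, the second 35-day or the second 49-day array 0 of those 5 rose (Fasn then at adjusted p = 0.11, 0.11 and 0.098), and in the folding list 2, 1 and 1 rose, with Hspa5 at adjusted p = 0.079 without the second 35-day array and 0.086 without the second 49-day array.

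**Figure D4:**
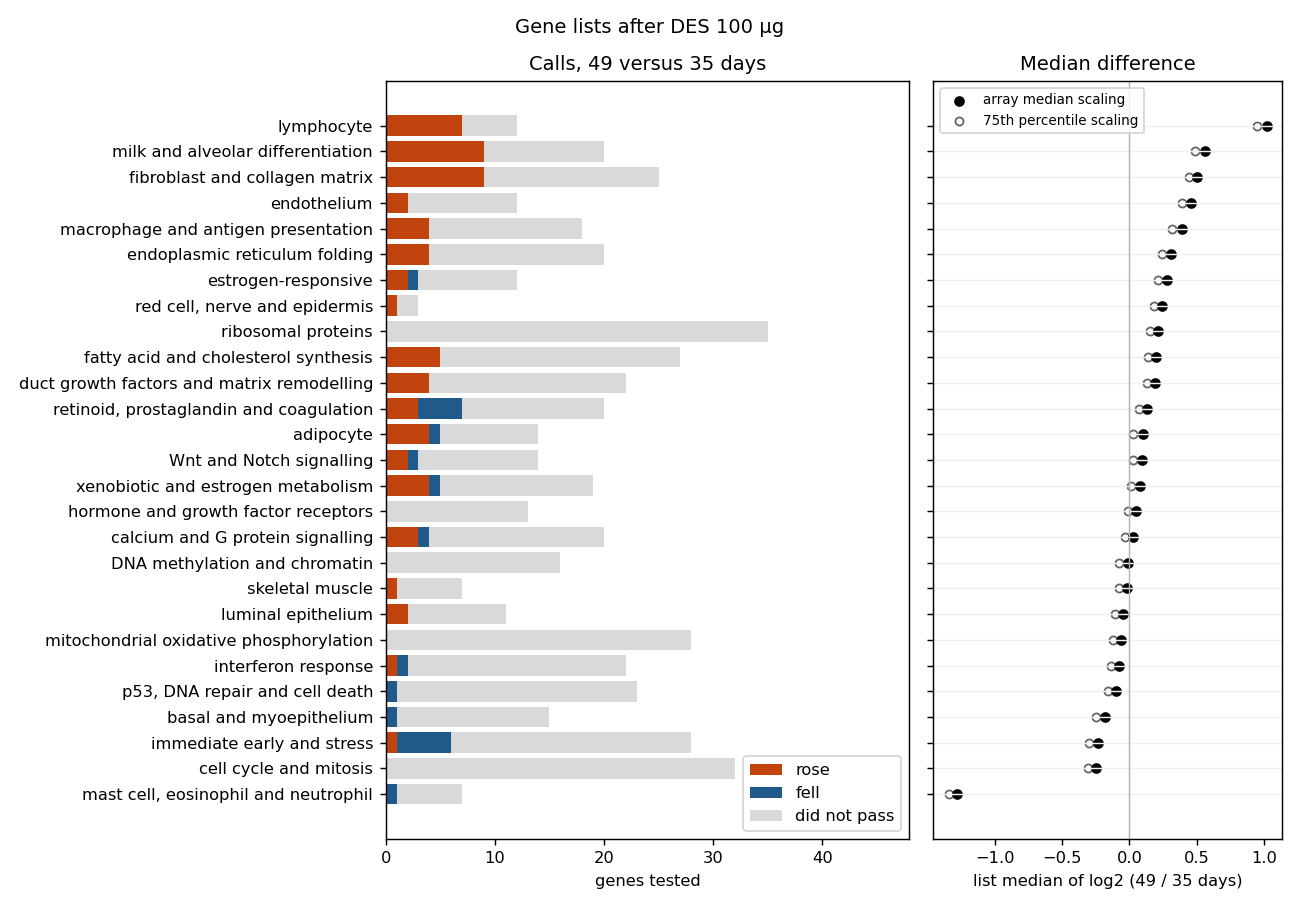
Left, the number of tested genes of each of 27 lists that rose, fell or did not pass at an adjusted p of 0.05 between 49 and 35 days after DES 100 µg. Right, the median log2 difference of each list under array median scaling (filled) and 75th percentile scaling (open), from 1.02 for lymphocyte genes to -1.28 for genes of mast cells, eosinophils and neutrophils. Under normexp, not drawn, these 2 medians were 0.35 and -0.32.

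Genes of cells other than the epithelium also moved. Col1a2, a chain of type I collagen, was at 863 and 968 at 49 days, against 428 and 571 at 35 days (log2 0.89 ± 0.19, adjusted p = 0.035). Mgp, a matrix protein that inhibits calcification, was at 168 and 190 at 49 days, against 68.7 and 61.9 at 35 days (log2 1.46 ± 0.13, adjusted p = 0.001). The fibroblast and collagen matrix list had 9 rises and 0 falls among 25 tested genes, beside 4.34% of all features that rose, and a median of 0.50 (0.52 with scan day as a block, 0.26 under normexp). Its rises also include Mfap4, Ogn, Bgn, Loxl1, Col6a3, Col15a1 and Fn1, and 2, 2, 7 and 1 genes rose without the first 35-day, second 35-day, first 49-day and second 49-day array. Col1a2 then had adjusted p = 0.19, 0.062, 0.063 and 0.21, while Mgp kept its call. The summed level of the 4 measured fibroblast markers (of 6) was 972.5 and 1055 times the median at 49 days, against 531.5 and 659 at 35 days, and Col1a2 makes up most of it. Of the other 3 markers none passed. Dcn, decorin, was at 75.8 and 60.1 at 49 days, against 78.1 and 68.8 at 35 days (adjusted p = 0.78), and these overlap.

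In the lymphocyte list 7 of 12 tested genes rose, beside 4.34% of all features, and 0 fell. Its median of 1.02 (0.86 with scan day as a block) was the highest of the 27 lists, but under normexp it was 0.35, below the 0.36 of the milk list. Cd7, a surface protein of T and NK cells, was at 7.85 and 8.30 at 49 days, against 3.16 and 3.01 at 35 days (log2 1.39 ± 0.15, adjusted p = 0.0021), and its call held without any single array. Cd3g, a subunit of the T cell receptor complex, was at 2.72 and 2.01 at 49 days, against 1.03 and 1.13 at 35 days (log2 1.12 ± 0.19, adjusted p = 0.014). Jchain, which joins secreted antibody units, was at 4.79 and 3.83 at 49 days, against 2.14 and 1.98 at 35 days (log2 1.06 ± 0.18, adjusted p = 0.015). The other rises were Gzma, Il2rb, Zap70 and Cd3d, and 2, 1, 3 and 3 genes rose without the first 35-day, second 35-day, first 49-day and second 49-day array. Cd3g then had adjusted p = 0.092, 0.071, 0.050 and 0.030, and Jchain lost its call without either 35-day array (0.070 and 0.097) and the first 49-day array (0.054). Among the 6 T and B cell markers, Cd3e, Cd79b and Ms4a1 were detected on none of the 4 arrays, and Cd3g and Jchain make up most of the summed level of 7.67 and 5.92 at 49 days, against 3.29 and 3.24 at 35 days.

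Macrophage genes moved the same way in part, with 4 of 18 tested genes higher (Trem2, Ccl6, Laptm5 and Fcgr2b) beside 4.34% of all features, and a median of 0.39 (0.33 with scan day as a block, 0.19 under normexp), and the 4 measured markers (of 7) summed to 59.6 and 56.1 at 49 days, against 43.05 and 44.9 at 35 days. Ccl6, a chemokine, was at 8.84 and 9.80 at 49 days, against 5.14 and 5.30 at 35 days (log2 0.84 ± 0.11, adjusted p = 0.0044), and it alone kept its call without any single array. Trem2, Laptm5 and Fcgr2b reached adjusted p = 0.10, 0.14 and 0.14 without the first 35-day array. Beside 4.34% of all features that rose and 1.52% that fell, fat cell genes were mixed: Cidec, a lipid droplet protein, Cfd, adipsin, Acsl1 and Thrsp rose (log2 1.26 ± 0.14, 1.12 ± 0.20, 0.96 ± 0.14 and 0.93 ± 0.14) and Dgat2 fell by 0.58 ± 0.12, among 14 tested genes with a median of 0.10. Of these only Cidec kept its call without each of the 4 arrays, the others reaching adjusted p of 0.12, 0.06, 0.072 and 0.15. The 7 fat cell markers summed to 478 and 579 at 49 days, against 320 and 307 at 35 days, with Plin1 detected on no array. Cma1, mast cell chymase, was at 7.37 and 9.92 at 49 days, against 19.6 and 22.02 at 35 days (log2 -1.28 ± 0.18, adjusted p = 0.0066, and 0.059 without the second 35-day array), and the 5 mast cell markers summed to 22.6 and 28.9, against 42.4 and 40.7. Cma1 is a large part of that sum and the only 1 of the 5 tested markers that passed. Cpa3, another mast cell protease, was at 3.95 and 2.29 at 49 days, against 9.47 and 6.79 at 35 days, and did not pass (adjusted p = 0.072). More cells of a type and more RNA in each cell cannot be told apart in these arrays.

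The dissected tissue carried the markers of mammary epithelium on all 4 arrays. Krt19, Cdh1, Epcam and Cldn3 of luminal cells and Krt14, Myh11, Cnn1 and Tp63 of basal cells were detected throughout, while the luminal factor Elf3 was not. The 6 measured basal markers (of 8) summed to 251 and 276 at 49 days, against 314 and 341 at 35 days. The luminal and basal sums were thus lower, and the fibroblast, fat cell, macrophage and lymphocyte sums higher, on both 49-day arrays than on both 35-day arrays. Single bright genes weigh heavily in such sums. C1qb makes up most of the macrophage sum (adjusted p = 0.39), and 0 of the 2 tested macrophage markers rose. Cfd, at 245 and 328.5 at 49 days, is a large part of the fat cell sum. Of 5 tested fat cell markers 2 rose and 0 fell, and Adipoq overlapped between the ages (adjusted p = 0.93). None of the tested luminal and basal markers passed. The endothelial markers summed to 38.2 and 49.5 at 49 days, against 38.3 and 34.5 at 35 days, which overlap. In the longer luminal list 2 of 11 tested genes rose, beside 4.34% of all features, 0 fell, and the median was -0.05. The 2 rises were Muc1, a mucin, and Cldn1, a tight junction claudin (log2 0.86 and 0.76). Both calls ended without the first 35-day array (adjusted p = 0.19 and 0.082), the second 35-day array (0.068 and 0.060) and the second 49-day array (0.22 and 0.073). The part of these shifts in the gene differences was not tested.

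Smaller sets held single strong members. Sfrp2, a secreted modulator of Wnt signalling, was at 2.58 and 2.55 at 49 days, against 0.825 and 0.949 at 35 days (log2 1.53 ± 0.15, adjusted p = 0.0013). Sult1a1, a sulfotransferase that conjugates phenols, was at 5.13 and 6.09 at 49 days, against 1.78 and 1.86 at 35 days (log2 1.62 ± 0.12, adjusted p = 0.00051). Both calls held without any single array, with 0.66 for Sfrp2 and 0.98 for Sult1a1 under normexp. In the xenobiotic and estrogen metabolism list 4 of 19 rose and 1 fell, and in the Wnt and Notch list 2 of 14 rose and 1 fell, beside 4.34% and 1.52% of all features. Genes that set retinoic acid levels changed in both directions. Aldh1a2, which makes retinoic acid, was at 1.31 and 1.14 at 49 days, against 0.638 and 0.378 at 35 days (log2 1.32 ± 0.25, adjusted p = 0.020, and 0.087 without the second 35-day array, 0.066 without the first 49-day array and 0.090 without the second). Cyp26b1, which degrades it, was not well above background on either 49-day array, with signals of 0.0828 and 0.150, against 0.804 and 0.964 at 35 days, which makes it at least 3.24-fold lower (adjusted p = 0.0019). Under normexp the log2 differences were 0.42 for Aldh1a2 and -0.51 for Cyp26b1. In the list of retinoid, prostaglandin and coagulation genes 3 of 20 rose and 4 fell, Tfpi and Cyp26b1 among them, and these 2 kept their calls without any single array. Other genes seen on both 35-day arrays and on neither 49-day array were Chct1, at least 10.2-fold lower, and Pla2g5, Rab3b and Arc, at least 2.50-fold, 2.11-fold and 2.04-fold lower. Under normexp these 4 had log2 differences of -1.16, -0.29, -0.25 and -0.19, again less than the bounds. Of these Rab3b, a GTPase of secretory vesicles, kept its call without each array, whereas the adjusted p of Chct1, Pla2g5 and Arc rose to 0.20 without the second 49-day array, 0.067 without the first 35-day array and 0.087 without the second 35-day array.

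Whether the difference with age itself depended on the dose was tested as an interaction. Of 12192 features, 280 (2.30%) had a different change between 49 and 35 days after DES 100 µg than after DES 1 µg, 122 (1.00%) with a higher and 158 (1.30%) with a lower difference at 100 µg. Without single arrays the calls numbered 299 (without the first DES 100 µg array at 49 days), 194 (without the first DES 1 µg array at 35 days) and 111 to 145 without any other array of the 4 groups. Among genes with a symbol detected on every array of these 4 groups, Csn1s2a, Csn2 and Wap had the largest passing interactions. After DES 1 µg Csn1s2a was at 2.37 on both 49-day arrays, against 28.2 and 37.8 at 35 days, the opposite order to DES 100 µg, and the interaction was 7.59 ± 0.35 on the log2 scale (adjusted p = 9.3e-05). Csn2 was at 1.75 and 2.04 at 49 days, against 31.3 and 25.4 at 35 days after DES 1 µg (interaction 5.59 ± 0.30, adjusted p = 0.00014), and Wap at 0.992 and 0.773, against 3.49 and 5.03 (interaction 5.07 ± 0.34, adjusted p = 0.00036). At 35 days both DES 1 µg animals were above both DES 100 µg animals for these 3 genes. For Csn3 the 49-day arrays were the higher ones at both doses, with 351 and 361 at 49 days, against 173 and 252.5 at 35 days after DES 1 µg, and its interaction did not pass (1.22 ± 0.34, adjusted p = 0.11).

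After DES 1 µg 487 of 11659 features (4.18%) differed between 49 and 35 days, 3.41% higher and 0.772% lower. In the milk list the DES 1 µg animals had 3 rises and 7 falls with age among 20 tested genes (median -0.13), beside 9 rises and 0 falls after DES 100 µg. The immediate early list showed 10 rises and 0 falls of 28 after DES 1 µg (median 0.58), beside 1 rise and 5 falls after DES 100 µg. Fos was at 35.9 and 35.6 at 49 days, against 12.04 and 10.2 at 35 days after DES 1 µg, and its change differed between the doses by -2.99 ± 0.24 (adjusted p = 0.00089). Pls1 likewise rose with age after DES 1 µg, with 1.68 and 1.35 at 49 days, against 0.673 and 0.550 at 35 days (interaction -3.04 ± 0.28, adjusted p = 0.0018). DES 1 µg and DES 100 µg were scanned together on 1 day for the second arrays at 49 days and on 1 day for the second arrays at 35 days. Within those 2 days the interaction was 8.37 for Csn1s2a, 5.51 for Csn2, 5.64 for Wap, -3.0 for Fos and -2.97 for Pls1, while with scan day as a block 0 features passed in limma and 1688 had an unadjusted p under 0.05.

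**Figure D5:**
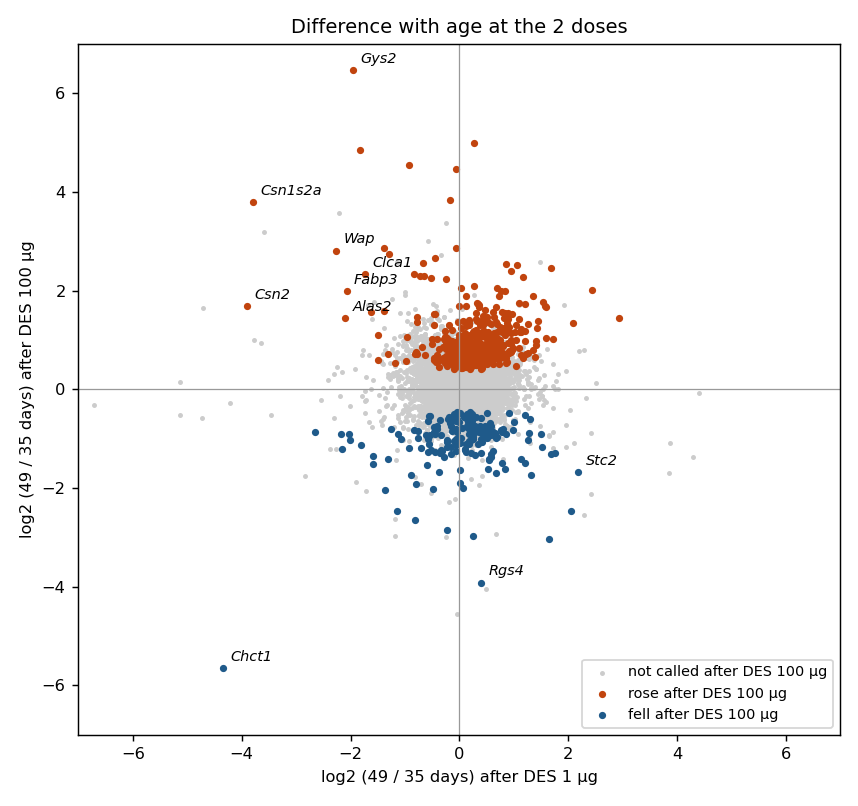
Log2 difference between 49 and 35 days after DES 100 µg (vertical) against that after DES 1 µg (horizontal) for 11402 features tested in both, coloured where called after DES 100 µg, with 10 genes labelled. Csn1s2a, Csn2, Wap, Fabp3, Clca1 and Alas2 lie upper left, Stc2 lower right, and the values of Gys2 and Chct1 come from arrays where the gene was not detected.

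The 2 age comparisons share no array. Of 685 features called after DES 100 µg and tested at both doses, 164 were also called after DES 1 µg (23.9% of these and 34.7% of the 473 called after DES 1 µg), 122 in the same direction and 42 in the opposite one. Across the 11402 features the 2 sets of log2 differences had r = -0.03, and r = -0.10 across the 9088 detected on all 12 arrays. Actg2 fell with age at both doses, with 19.7 and 18.9 at 49 days, against 39.02 and 47.3 at 35 days after DES 1 µg (log2 -1.15), and its fall was larger after DES 100 µg (interaction -1.31, adjusted p = 0.014). Ppp2r2b and Khdrbs3 fell at both doses (log2 -1.58 and -1.31 after DES 1 µg), and Areg and Ereg rose at both (0.91 and 1.73). For these 4 the interaction did not pass, with adjusted p values of 0.55, 0.86, 0.73 and 0.18.

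In oil alone 4896 of 11510 features (42.5%) differed between the ages, 27.9% higher and 14.7% lower. Of 683 features called after DES 100 µg and tested in oil too, 408 (59.7%) were also called there, beside 42.5% of all features. The direction was the same for 348 of them and opposite for 60. Among 505 that rose after DES 100 µg, 285 were higher and 35 lower at 49 days in oil. Of 178 that fell, 25 were higher and 63 lower. Across 11388 features the log2 differences with age after DES 100 µg and in oil had r = 0.36. This r was 0.38 across the 9088 detected on all 12 arrays. Against the change in oil, 1208 of 12057 features differed (10.0%), 576 (4.78%) with a higher and 632 (5.24%) with a lower difference with age after DES 100 µg. Scaling by the 75th percentile gave 782 and 486. Fits without single arrays made from 271 calls without the first DES 100 µg array at 35 days (264 of them among the 1208) to 869 without the second at 49 days (715 among them). The number was 440 without the first DES 100 µg array at 49 days, 532 and 646 without the oil arrays at 49 days, and 329 and 636 without those at 35 days. Csn1s2a, Csn2 and Wap were higher at 49 days in oil too, with 5.35 on both arrays, 3.32 and 3.37, and 3.23 and 3.68, against 0.746 and 0.6395, 1.28 and 1.09, and 0.859 and 1.235 at 35 days. Their change after DES 100 µg did not pass as different from that in oil (0.85 ± 0.35, 0.19 ± 0.30 and 1.07 ± 0.34, adjusted p = 0.15, 0.71 and 0.082), which does not show that the changes were equal. Csn3 and Csn1s1 did not pass either (-0.69 and 0.38, adjusted p = 0.21 and 0.18). Fabp3 did: in oil it was at 6.28 and 7.39 at 49 days, against 6.38 and 5.78 at 35 days (interaction 1.83 ± 0.21, adjusted p = 0.0037). Igf2 rose more in oil, to 67.1 and 69.3 at 49 days, against 5.56 and 5.75 at 35 days (interaction -1.29 ± 0.16, adjusted p = 0.0055). Among genes detected on every array of the 4 groups, Aadat differed most in the other direction. In oil it was at 4.21 and 4.03 at 49 days, against 9.80 and 6.22 at 35 days (interaction 3.58 ± 0.31, adjusted p = 0.0015). Rgs4 fell in oil as well, with 1.31 and 1.18 at 49 days, against 3.45 and 2.64 at 35 days, and by less than after DES 100 µg (interaction -2.64 ± 0.29, adjusted p = 0.0036).

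The comparison of DES 1 µg with oil at 35 days uses none of the 4 DES 100 µg arrays, and 887 of 11893 features (7.46%) were called in it, 3.22% higher and 4.24% lower. Of 513 features that rose with age after DES 100 µg and were tested in both, 127 were higher and 36 lower with DES 1 µg than with oil at 35 days. Of 178 that fell with age, 8 were higher and 64 lower. Across the 9088 features detected on all 12 arrays the 2 sets of log2 differences had r = 0.45, across features that are not independent replicates, and the arrays behind them share 2 scan days. Csn1s2a was at 28.2 and 37.8 times the array median with DES 1 µg at 35 days, against 0.746 and 0.6395 with oil.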

How the data were processed

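Terminal end buds were profiled on 1-colour Agilent rat arrays labelled with Cy3, 12 arrays in 6 groups of 2 animals. The submitters' processing notes name Agilent Feature Extraction 9.1.3.1. In the value table, as deposited, the unit is intensity: background-corrected signal, not scaled across arrays, which matches the scanner signal of the 10 arrays with scanner files to within 0.497%. The authors' normalized table gives a ratio, found from its values to be signal over the median of its array, then over the mean of each probe in oil at 35 days, with detection flags. Its array differences equal those of the value table within 0.05 log2 for 99.99% of detected values. The genome build and the authors' tests are not given in the sources used here.

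Intensities were divided by the array median, floored at 0.01 and put on the log2 scale. RefSeq gave names to 6579 probes through accessions, to 2427 through symbols and to 686 through former symbols, and 10808 stayed unnamed. For genes with several detected probes (849) the brightest was kept. limma 3.58.1 (R 4.3.3) fitted a mean per group, with 6 residual degrees of freedom and Benjamini-Hochberg adjustment over features detected on both arrays of at least 1 group compared. SE is the standard error of the fit. Precision is limited by 2 arrays a group. The fit was tested on simulated data with independent noise and no scan-day effect, so that test says nothing about scan day. Members, gene lists and named genes were chosen with earlier results of these data known: the 15 largest rises and falls, the 5 largest bounds each way, up to 4 members of each list with the smallest p, 14 set genes, and the 8 and 6 largest interactions with DES 1 µg and oil. Other list members named were taken for their calls. Some genes are not reported here. The normexp alternative used the median spot signal because the scanner files hold no mean signal, and it and the scan-day block cover 10 arrays. Replicate numbers were not treated as pairs of animals. Deviations of same-numbered arrays correlated from -0.112 to 0.432 between groups, with 0.24 for the 2 ages of DES 100 µg, which does not settle whether the numbers pair animals.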

Additional observations from a re-analysis of the deposited data

Results flagged for a closer look

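The change with age differed between DES 100 µg and DES 1 µg for 280 features and between DES 100 µg and oil for 1208, by the interaction test. Among genes detected on every array of the groups compared, the largest differences between the doses were in Csn1s2a (7.59), Csn2 (5.59), Wap (5.07), Rgs4 (-4.31), Clca1 (4.07), Fabp3 (4.06), Stc2 (-3.86) and Alas2 (3.55), as log2 values. Clca1 was at 253 and 266 times the array median at 49 days, against 51.9 and 51.2 at 35 days after DES 100 µg, and at 366 and 385, against 1291 and 1207, after DES 1 µg. Fabp3 was at 8.77 and 7.57 at 49 days, against 35.4 and 33.0 at 35 days after DES 1 µg. Stc2 was at 2.19 and 2.21 at 49 days, against 0.662 and 0.354 at 35 days after DES 1 µg, so it differed with age in opposite directions at the 2 doses. Alas2, the erythroid enzyme of heme synthesis, was at 3.82 and 4.23 at 49 days, against 1.57 and 1.37 at 35 days after DES 100 µg, and at 1.55 and 1.51, against 6.24 and 6.83, after DES 1 µg.

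Under the same condition of detection, the largest passing differences from oil were in Aadat (3.58), Pianp (-3.15), Tcf3 (-3.07), Slc13a3 (-2.78), Polm (-2.70) and Ccdc33 (-2.57). Without that condition larger ones passed, such as 7.64 for Gys2 and -8.99 for Glycam1, which were not detected on every array. Pianp, Tcf3, Polm and Ccdc33 overlapped between the ages after DES 100 µg, and their values in oil at 49 days were far above all other arrays. Polm was at 11.2 and 13.4 at 49 days, against 12.9 and 12.1 at 35 days after DES 100 µg, and at 78.0 and 61.2, against 10.2 and 11.6, in oil. Slc13a3, a transporter of dicarboxylates, was at 3.90 and 4.58, against 6.67 and 6.76, after DES 100 µg, and at 41.8 on both arrays, against 9.32 and 9.97, in oil.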

How the results depend on the processing

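Called features between 49 and 35 days after DES 100 µg numbered 699, and stayed within 1.5 times of this without the oil arrays at 49 days, under 75th percentile or quantile scaling, with other detection filters, a floor of 0.1, every probe on its own, a variance trend or the authors' table. The 4 arrays alone, with 2 residual degrees of freedom, gave 27 calls, normexp gave 181 and scan day as a block 0 (1337 at an unadjusted p under 0.05). Leaving out 1 array gave 182 to 745. The interaction with DES 1 µg, 280 calls, moved to 112 in the 8 arrays compared, 455 and 459 under 75th percentile and quantile scaling, 109 under normexp, 450 with a variance trend and 0 with scan day as a block (1688 at an unadjusted p under 0.05), and ranged from 111 to 299 without single arrays. That with oil, 1208 calls, moved to 752 for features detected on every array compared, with 9102 tested, and ranged from 271 to 869, and it could not be run without the oil arrays at 49 days, with normexp or with the scan-day block. The replicate block gave 799, 406 and 1472 calls, though the replicate numbers are not known to pair animals. Apart from fewer arrays or features, the cause of these shifts was not tested.

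Of 92 named genes called, 36 kept the call without each DES 100 µg array in turn, 14 passed with the 4 arrays alone, and all 92 kept their sign with scan day as a block. Signs turned only for genes that did not pass. Without single DES 100 µg arrays the log2 difference ran from -0.09 to 0.82 for Ccdc33, -1.06 to 0.11 for Cxcl10, -0.48 to 0.18 for Pianp, -0.16 to 0.10 for Polm (0.01 without the first 35-day array), -0.35 to 0.41 for Tcf3 (-0.01 without the first 35-day array) and -0.01 to 1.19 for Tnni2. Scan day as a block gave 0.21 for Polm and 0.05 for Tnnc1, normexp -0.03 for Pmp22 and -0.09 for Tcf3, and 75th percentile and quantile scaling -0.03 and -0.04 for Tcf3. Of list medians, 389 of 459 values moved by less than 1 SD between arrays.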

Other observations

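Interferon-response genes gave 1 rise and 1 fall among 22 tested between 49 and 35 days after DES 100 µg (median -0.08), where 4.34% of all features rose and 1.52% fell. In oil 1 rose and 14 fell (median -0.92), where 27.9% of all features rose and 14.7% fell. Oas1a, an antiviral sensor of double-stranded RNA, was at 20.6 and 25.5 times the array median at 49 days, against 37.9 and 40.2 at 35 days after DES 100 µg (log2 -0.77 ± 0.13, adjusted p = 0.014, and 0.069 and 0.099 without the first and the second 35-day array). In oil it was at 52.1 and 49.3 at 49 days, against 92.7 and 95.6 at 35 days, and the interaction did not pass (0.13, adjusted p = 0.69).

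Vsnl1, a calcium sensor, was at 20.2 and 16.0 at 49 days, against 5.86 and 5.42 at 35 days after DES 100 µg (log2 1.67 ± 0.25, adjusted p = 0.0082, and 0.062 without the second 35-day array). It lay between 0.602 and 2.29 on the other 8 arrays. Pcp4 likewise ranged from 22.1 to 36.2 after DES 100 µg and from 1.47 to 7.62 on the other arrays.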
